A study of Mus musculus with 6 samples.

Results

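A set of 10 genes of the immediate-early response was followed in cells taken out of mouse B16 melanomas 14 and 7 days after implantation. They were Fos, Fosb, Jun, Junb, Jund, Atf3, Egr1, Dusp1, Ier2 and Zfp36, chosen by name as subunits of the transcription factor AP-1 and as other early response genes, and they are 10 of the 26754 genes in each table. Both groups came from female C57BL/6J mice aged 6 to 8 weeks, in which B16 cells, a mouse melanoma line, had grown under the skin of the right flank. The day 14 group and the day 7 group were cells retained on a magnetic column with beads for CD8a (a chain of the co-receptor on cytotoxic T cells), with 3 libraries of poly-A RNA each. The labels name no further treatment, and they do not say whether replicates were separate animals or pools, so a p-value describes only the spread between these libraries. The question set by the labels is how the RNA of the selected cells differed between the later and the earlier day.

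Immediate-early genes are transcribed within minutes of a stimulus, without new protein synthesis. Growth factor, stress and antigen receptor signals reach them through MAP kinases and through the factors SRF, TCF and CREB, which are present before the stimulus. FOS proteins pair with JUN proteins to form AP-1, whereas JUN proteins can also pair with each other. In T cells AP-1 acts with NFAT on cytokine genes, and in many tissues the cell dissociation that precedes sorting is itself known to induce these genes.

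Values were RPKM, reads per kilobase of gene and per 1000000 reads in genes. Depth was 11385106 to 13316522 reads in the day 14 libraries and 6523019 to 9313078 in the day 7 libraries. Of genes with 1 to 20 reads, 75.6% to 77.6% on day 14 and 84.0% to 87.7% on day 7 had an even number, so reads were mostly counted in pairs and a read number stands for fewer fragments. The reads of day 7 replicates 1 and 2 were no further apart than sampling gives for most genes (median chi-square ratio 1.11, with 2 reads taken as 1 fragment, where 1 is sampling alone), against 40.9 and 44.4 between these and replicate 3. Day 7 replicates 1 and 2 were averaged and counted as 1 sample. Unless another setting is named, tests therefore had n = 3 on day 14 and n = 2 on day 7. Between the day 14 libraries the median chi-square ratio was 4.05 to 4.43, so these were far more alike than the day 7 samples. Markers of other cell types were present beside those of T cells, and sums over different genes do not measure shares of cells. The 15 T cell markers summed to 148 to 156 RPKM on day 14 and 554 to 575 RPKM on day 7, with 14 of 15 lower in every day 14 library and none at 0 in all libraries. The 7 melanoma markers summed to 10410 to 11430 RPKM on day 14 and 5672 to 5896 RPKM on day 7, with 5 of 7 higher in every day 14 library. Most of either sum was Dct, with 9073, 8577 and 9681 RPKM on day 14 and 4521, 4726 and 4431 RPKM on day 7. Mitf and Pmel overlapped between the days. The 10 macrophage markers summed to 1334 to 1374 RPKM on day 14 and 814 to 943 RPKM on day 7, with 7 of 10 higher and 1 lower in every day 14 library. Most of either sum was Apoe and Lyz2. Apoe had 717, 682 and 732 RPKM on day 14 and 521, 491 and 497 RPKM on day 7. Lyz2 had 392, 381 and 376 RPKM on day 14 and 232, 226 and 186 RPKM on day 7. The 6 neutrophil markers summed to 50.2 to 65.3 RPKM on day 14 and 12.7 to 17.4 RPKM on day 7, with 4 of 6 higher in every day 14 library. Most of the day 14 sum was S100a9, with 39.2, 36.6 and 49.2 RPKM on day 14 and 6.25, 3.29 and 8.81 RPKM on day 7. S100a8 overlapped between the days, and Cxcr2 and Retnlg were at 0 on day 7 and at most 1.98 RPKM on day 14. The 6 NK cell markers summed to 15.6 to 18.1 RPKM on day 14 and 122.8 to 159.7 RPKM on day 7, with 6 of 6 lower in every day 14 library. The 4 hepatocyte markers summed to 4.83 to 9.12 RPKM on day 14 and 117 to 149.5 RPKM on day 7, with 3 of 4 lower in every day 14 library. Beside these marker counts, 31.6% of all tested genes were higher and 17.8% lower in every day 14 library. Mitochondrial transcripts took 8.42% to 9.35% of reads on day 14 and 15.6% to 16.9% on day 7. In such mixed RNA, fewer cells of a type and less RNA per cell cannot be told apart, and the part of these shifts in the results on early genes was not tested.

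The promoters of Fos, Atf3 and Dusp1 are printed because these were the members with an unadjusted p under 0.05. Each is the 250 bases upstream of the start site in RefSeq (GRCm38.p6), on the strand of the gene, 5′ to 3′. Capitals mark TGACG on either strand, the core of the cyclic AMP response element, the whole element TGACGTCA, and the TATA box TATAAA. The core lies within the whole element. Fos is at chr12:85473640-85473889 on the plus strand, Atf3 at chr1:191183334-191183583 on the minus strand and Dusp1 at chr17:26508473-26508722 on the minus strand.
Fos: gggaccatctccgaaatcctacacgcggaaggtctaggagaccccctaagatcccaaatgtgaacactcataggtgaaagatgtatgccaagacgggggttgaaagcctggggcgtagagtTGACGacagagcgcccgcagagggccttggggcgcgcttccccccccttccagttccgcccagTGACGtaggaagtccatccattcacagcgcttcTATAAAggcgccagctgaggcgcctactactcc
Atf3: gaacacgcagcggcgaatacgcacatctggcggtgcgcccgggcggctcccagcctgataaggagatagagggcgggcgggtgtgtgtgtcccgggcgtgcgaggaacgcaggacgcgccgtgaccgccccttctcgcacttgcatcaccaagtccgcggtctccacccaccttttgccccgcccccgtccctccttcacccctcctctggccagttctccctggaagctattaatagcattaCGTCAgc
Dusp1: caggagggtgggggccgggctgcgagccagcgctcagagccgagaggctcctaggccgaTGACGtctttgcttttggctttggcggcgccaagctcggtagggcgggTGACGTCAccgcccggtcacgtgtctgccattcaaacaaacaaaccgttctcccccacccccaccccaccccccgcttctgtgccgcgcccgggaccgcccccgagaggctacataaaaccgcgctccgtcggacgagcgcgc
The Fos start site is the first base of the counted gene model, while those of Atf3 and Dusp1 lie inside their models. Of the 10 genes, 8 had a RefSeq window of 300 bases (250 before and 50 after the start), and Egr1 and Ier2 were not matched. The Jund window, at chr8:70697489-70697788 on the plus strand, ends upstream of its counted model, which begins at chr8:70698949. TGACG was found in 5 of these 8 windows and in 20.8% of all 32851 windows, and TGACGTCA in 1 of 8 (Dusp1, 143 bases upstream) and 1.79% of all. TATAAA was found in 2 of 8 (Fos, 33 bases upstream, and Junb) and 13.6% of all, and the GC-rich GGGCGG in 6 of 8 and 35.7% of all. The Junb match begins at the start site and not upstream of it. The AP-1 site TGANTCA was found in 0 of 8 and 7.81% of all windows, which says only that these letters are not in these windows. A CArG box, the letters bound by SRF, was found in 1 of 8 (Zfp36, 58 bases upstream) and 1.63% of all. These matches are a description of letters and not of bound sites.

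Fos, the main partner of JUN in AP-1, had 77.9, 80.5 and 79.9 RPKM in day 14 replicates 1 to 3, against 47.1, 51.3 and 40.9 RPKM in day 7 replicates 1 to 3. Every day 14 library was above every day 7 library, and the day 14 libraries lay close together. The mean was 79.4 ± 1.36 RPKM on day 14 (SD, n = 3) and 45.1 ± 5.84 RPKM on day 7 (SD, n = 2), a ratio of 1.76. The counted gene model (GRCm38) lies at chr12:85473890-85477273 on the plus strand, in 4 exon blocks. On the log2(RPKM + 1) scale the change was 0.81 (SE 0.20, 95% interval 0.37 to 1.25), with an unadjusted p of 0.00219 and an adjusted p of 0.0570 in limma, just short of the threshold of 0.05. This side of the threshold depended on how the precision weights of the fit were made. Of the 10 forms of the weights that were looked at, 6 called Fos higher on day 14 and 4 did not, with adjusted p from 0.0168 to 0.0697. Over the 16 other settings that keep total-count or median scaling, the adjusted p ranged from 0.000317 to 0.251 and passed in 6, among them without day 7 replicate 2 (0.0490) and without day 7 replicate 3 (0.000317).

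Atf3, a stress-induced bZIP factor that pairs with JUN proteins and often represses, had 62.1, 68.0 and 66.5 RPKM in the day 14 libraries and 42.1, 43.2 and 28.2 RPKM in the day 7 libraries. The days did not overlap, and day 7 replicate 3 was the lowest of the 6. The mean was 65.6 ± 3.06 RPKM on day 14 (SD, n = 3) and 35.4 ± 10.2 RPKM on day 7 (SD, n = 2), a ratio of 1.85. Its model lies at chr1:191170296-191218039 on the minus strand, in 5 exon blocks. The log2 change was 0.90 (SE 0.24, 95% interval 0.37 to 1.43), with an unadjusted p of 0.00362 and an adjusted p of 0.0717 in limma. Atf3 passed in 4 of the 10 forms of the weights (adjusted p 0.0240 to 0.0781) and in 5 of the 16 other settings (adjusted p 0.00107 to 0.289), including the one without day 7 replicate 3 (0.00107).

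Fosb, the second FOS family member, had 20.01, 20.02 and 19.6 RPKM in the day 14 libraries and 15.4, 14.9 and 12.1 RPKM in the day 7 libraries. All day 14 values were above all day 7 values, by a smaller margin than for Fos. The log2 change was 0.52 (SE 0.28), with an adjusted p of 0.344 in limma, and Fosb passed in 0 of the 16 other settings. Jun, which carries the strong transactivation domain of many AP-1 dimers, was the most abundant of the 10 genes per length in every library. It had 124, 124 and 120 RPKM in the day 14 libraries and 95.1, 90.6 and 102 RPKM in the day 7 libraries, again without overlap. Its model, at chr4:95049034-95052222 on the minus strand, is in 1 exon block (overlapping exons merged), as are those of Jund, Ier2 and Zfp36. The mean was 122 ± 2.40 RPKM on day 14 (SD, n = 3) and 97.6 ± 6.77 RPKM on day 7 (SD, n = 2), with a log2 change of 0.33 (SE 0.20) and an adjusted p of 0.422 in limma. Jun passed in 2 of the 16 other settings (adjusted p 0.00458 to 0.787), including the one without day 7 replicate 3.

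Junb, a JUN family member that is a weaker activator than JUN at many sites, had 32.4, 28.2 and 28.9 RPKM in the day 14 libraries and 30.2, 27.2 and 36.0 RPKM in the day 7 libraries. The days overlapped, with day 7 replicate 3 highest. The log2 change was -0.11 (SE 0.29, adjusted p 0.885 in limma), and its sign turned to 0.053 without day 7 replicate 3. Jund, the JUN family member with the most constant expression in many cells, had 21.4, 20.52 and 29.4 RPKM in the day 14 libraries and 31.7, 29.7 and 46.9 RPKM in the day 7 libraries. The day 14 values lay below the day 7 values, but day 14 replicate 3 and day 7 replicate 2 almost met. The log2 change was -0.67 (SE 0.43, adjusted p 0.428 in limma; 0.0402 to 0.528 over the 16 other settings, passing in 1). The Jund value is uncertain because its model contains all 877 bases of Gm11175 on the opposite strand, whose reads came to 58.9% to 72.5% of those of Jund on day 14 and 74.2% to 78.8% on day 7. Junb overlaps Prdx2 by 173 bases, Jun overlaps Junos by 232 bases and Zfp36 overlaps Gm44710 by 125 bases, each on the opposite strand, and the strand setting of the counting is not given in the sources used here.

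**Figure D1:**
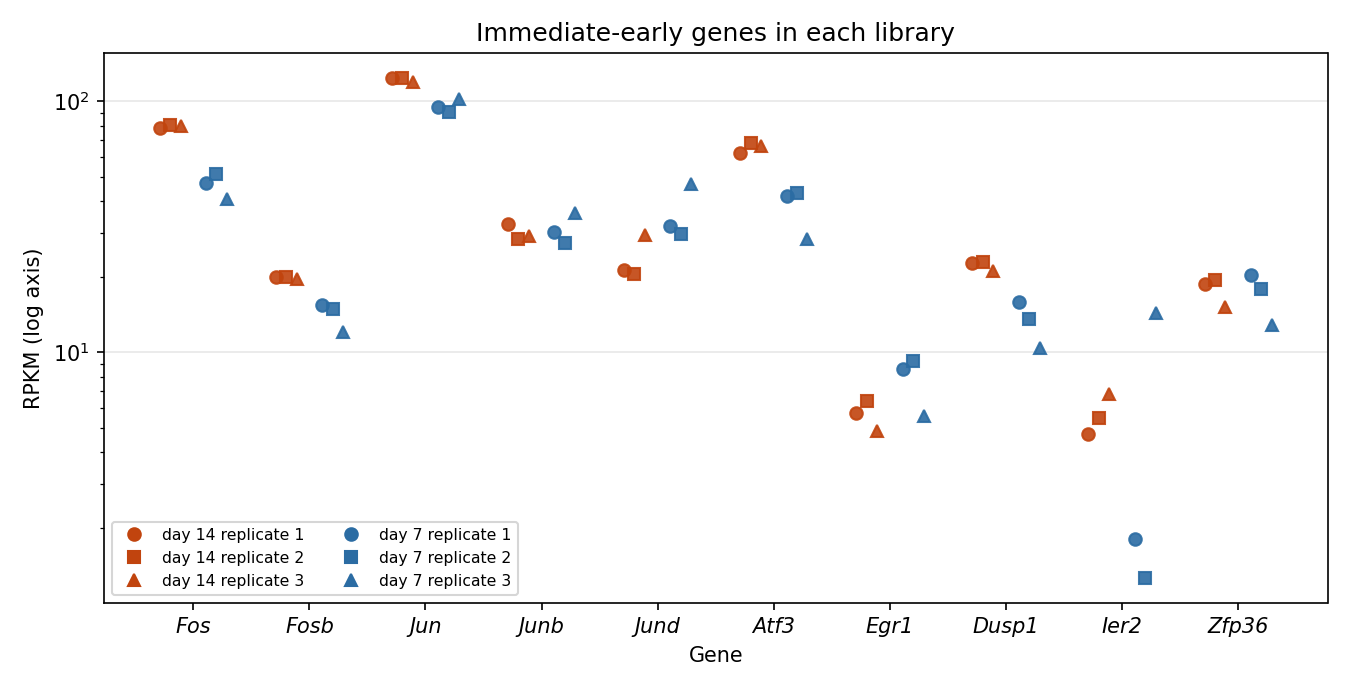
RPKM (log axis) of the 10 genes in each library, day 14 replicates (orange) left of day 7 replicates (blue), with 1 symbol per replicate number. Fos, Fosb, Jun, Atf3 and Dusp1 have all day 14 points above all day 7 points, and Ier2 has day 7 replicate 3 at 14.3 RPKM far above the other day 7 libraries.

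Dusp1, a phosphatase that switches off MAP kinases, had 22.8, 22.9 and 21.1 RPKM in the day 14 libraries and 15.9, 13.6 and 10.5 RPKM in the day 7 libraries. The days did not overlap, and the day 7 libraries were the more spread. The mean was 22.3 ± 1.00 RPKM on day 14 (SD, n = 3) and 12.6 ± 3.03 RPKM on day 7 (SD, n = 2), a ratio of 1.77. Its model lies at chr17:26505590-26508519 on the minus strand, in 2 exon blocks. The log2 change was 0.79 (SE 0.29, 95% interval 0.15 to 1.44), with an unadjusted p of 0.0208 and an adjusted p of 0.175 in limma. Dusp1 passed in 4 of the 16 other settings (adjusted p 0.00707 to 0.395), including the one without day 7 replicate 3 (0.00707).

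Egr1, a zinc finger activator induced through SRF and the TCF proteins, had 5.76, 6.43 and 4.89 RPKM in the day 14 libraries and 8.62, 9.24 and 5.61 RPKM in the day 7 libraries. Day 7 replicate 3 lay among the day 14 values. The log2 change was -0.28 (SE 0.47, adjusted p 0.803 in limma), and without day 7 replicate 3 it was -0.58 with an adjusted p of 0.0239, the lowest of the 16 other settings, whose highest was 0.865. Zfp36, which binds AU-rich elements and speeds the decay of cytokine transcripts, had 18.7, 19.5 and 15.2 RPKM in the day 14 libraries and 20.2, 17.9 and 12.9 RPKM in the day 7 libraries, with overlap. Its log2 change was 0.17 (SE 0.34, adjusted p 0.843 in limma), and the sign turned under median-of-ratios scaling (-0.013) and without day 7 replicate 3 (-0.10).

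Ier2, a small nuclear protein induced by growth factors, had 4.73, 5.49 and 6.81 RPKM in the day 14 libraries, from 82, 105 and 138 reads. It had 1.81, 1.27 and 14.3 RPKM in the day 7 libraries, from 22, 18 and 142 reads. The day 14 libraries lay between day 7 replicates 1 and 2 and day 7 replicate 3, which was 9.28 times the mean of the other 2. Its mean of 10.0 CPM (reads per 1000000) fell below the minimum of 20 CPM, so Ier2 was not tested in the main comparison. Over all 6691 tested genes, day 7 replicate 3 differed from the mean of replicates 1 and 2 by a median of 0.48 on the log2 scale in either direction, and 7.41% of genes differed by more than 3-fold.

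Of the 9 tested members, 0 were called higher and 0 lower on day 14 by limma at an adjusted p under 0.05, while 3 (Fos, Atf3 and Dusp1) had an unadjusted p under 0.05, all with higher values on day 14. Over all genes, 103 of 6691 were called higher (1.54%) and 124 lower (1.85%), and 1253 (18.7%) had an unadjusted p under 0.05, of which 822 (12.3%) with higher values on day 14. limma-voom on reads recovered from the RPKM called 2 members higher, Fos (adjusted p 0.00751) and Atf3 (0.0156), against 703 of all genes higher (10.5%), and 0 lower, against 554 (8.28%). Without day 7 replicate 3, limma called 4 members higher, against 36.3% of all genes, and 1 lower, against 21.7%. In 5 of 9 members every day 14 library was above every day 7 library, against 2112 of 6691 genes (31.6%), and in 1 of 9 every day 14 library was below, against 1190 genes (17.8%). The median log2 change of the 9 members was 0.33 and that of all tested genes 0.16. With median-of-ratios scaling these medians were 0.14 and -0.015. Divided by the summed RPKM of T cell genes instead, 9 of 9 members were higher on day 14, but so were 6271 of 6691 genes (93.7%), with medians of 2.16 for the members and 1.81 for all genes.

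**Figure D2:**
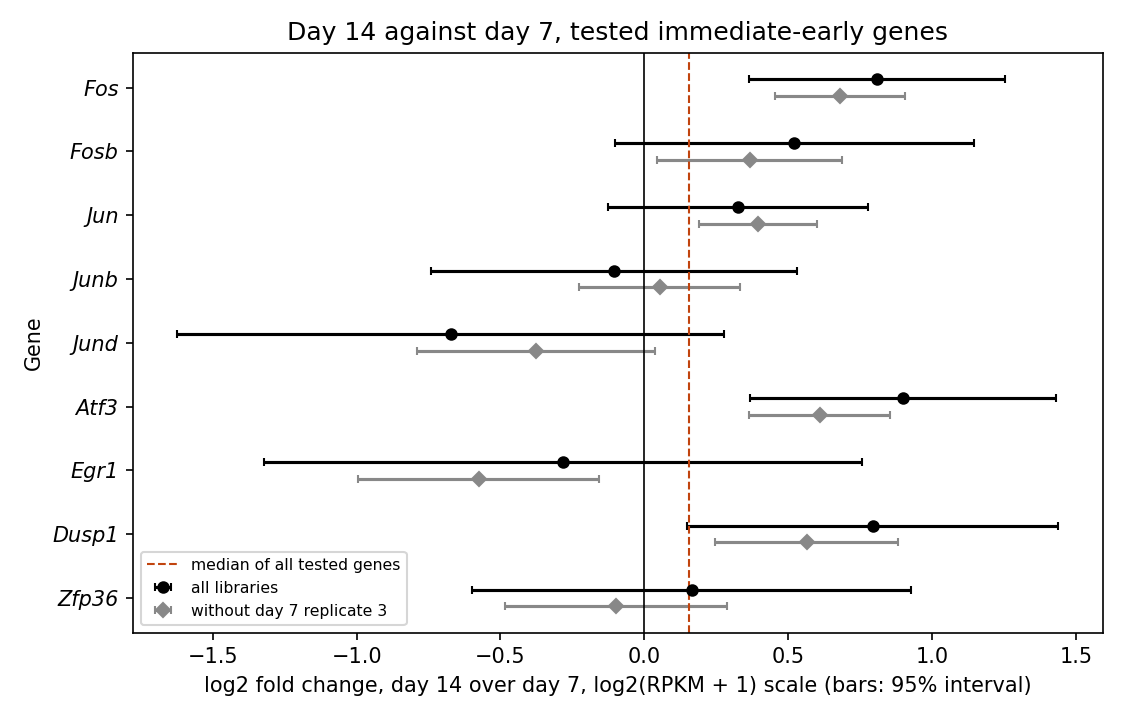
Log2 fold change, day 14 over day 7, of the 9 tested genes on the log2(RPKM + 1) scale with 95% intervals, from all libraries (black circles) and without day 7 replicate 3 (grey diamonds), where day 7 is 1 sample assumed to vary like day 14. The dashed line is the median of all tested genes, 0.16, and the black intervals of Fos (0.37 to 1.25) and Atf3 (0.37 to 1.43) lie above it.

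Read as one pool, Fos, Fosb, Jun, Junb and Jund summed to 276, 273 and 277 RPKM in the day 14 libraries and 220, 214 and 238 RPKM in the day 7 libraries. The FOS family made up 35.5%, 36.8% and 35.9% of this sum on day 14 and 28.5%, 31.0% and 22.2% on day 7. Both the sum and the FOS family share were higher in every day 14 library. Jund made up 7.76%, 7.52% and 10.6% of the sum on day 14 and 14.5%, 13.9% and 19.7% on day 7, with the uncertainty of its overlapping model. The ratio of Fos to Jun was 0.629, 0.650 and 0.668 on day 14 and 0.496, 0.566 and 0.400 on day 7. These sums and shares are descriptions with no test.

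**Figure D3:**
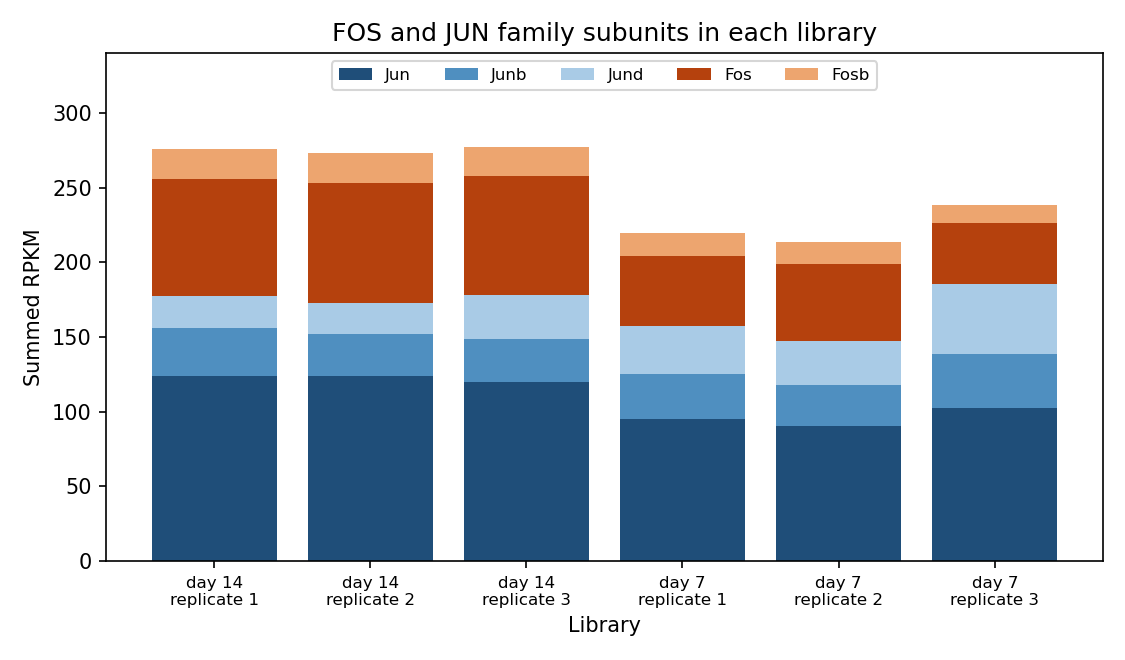
Summed RPKM of 5 FOS and JUN family genes in each library, day 14 left of day 7, with 1 colour per gene. The sum is 273 to 277 RPKM on day 14 and 214 to 238 RPKM on day 7, and the Fos segment is taller in every day 14 library.

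By mean RPKM, a level per length, the order on day 14 was Jun, Fos, Atf3, Junb, Jund, Dusp1, Fosb, Zfp36, Egr1 and Ier2. The ranges of Junb and Jund, of Jund and Dusp1, and of Egr1 and Ier2 overlapped, while those of the other neighbours did not. On day 7 the order was Jun, Fos, Jund, Atf3, Junb, Zfp36, Fosb, Dusp1, Ier2 and Egr1. There the ranges of Jun and Fos, and of Junb and Zfp36, were apart and those of all other neighbours overlapped. Among genes with a read, Jun stood at percentiles 97.9 to 98.1 on day 14 and 95.9 to 96.6 on day 7, and Egr1 at 61.5 to 66.2 on day 14 and 52.6 to 64.1 on day 7. Among the 6691 tested genes, those closest to Fos over the 5 samples, by Euclidean distance of centred log2(RPKM + 1) values, were Acly (0.062), Tpm1 (0.092) and Calu (0.095). Those closest to Jun were Yy1 (0.027), Ss18 (0.036) and Hnrnpu (0.048).

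Genes around the 10 were read from 9 lists, of which 75 genes were tested. In limma 4 were called higher and 0 lower on day 14, 25 had an unadjusted p under 0.05 and limma-voom called 17. Over all 6691 genes, 18.7% had an unadjusted p under 0.05 and limma-voom called 18.8%, the shares against which the counts of each list are to be read. The median log2 change over the 75 was 0.15, beside 0.16 for all tested genes.

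Among other AP-1 and related bZIP subunits, 0 of 8 tested genes passed in limma, 2 had an unadjusted p under 0.05, limma-voom called 2 and the median log2 change was 0.42. Jdp2, a JUN partner that represses AP-1 sites, had 52.5, 56.1 and 58.4 RPKM in the day 14 libraries and 46.8, 50.6 and 43.0 RPKM in the day 7 libraries (log2 change 0.28, adjusted p 0.547 in limma). Batf, which pairs with JUN proteins in lymphocytes, had 29.0, 14.2 and 25.1 RPKM in the day 14 libraries and 8.41, 7.87 and 66.8 RPKM in the day 7 libraries. Day 7 replicate 3 was the highest and the other day 7 libraries the lowest (log2 change -0.13, adjusted p 0.953 in limma).

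Among other EGR and NR4A factors with their NAB co-repressors, 0 of 5 tested genes passed in limma, 3 had an unadjusted p under 0.05, limma-voom called 1 and the median was -0.48. Nab1, a co-repressor of EGR proteins, had 56.0, 53.2 and 60.3 RPKM in the day 14 libraries and 70.1, 68.5 and 67.9 RPKM in the day 7 libraries (log2 change -0.28, adjusted p 0.528 in limma). Nr4a3, an orphan nuclear receptor induced by antigen receptor signals in T cells, had 32.8, 31.3 and 33.7 RPKM in the day 14 libraries and 48.7, 49.5 and 42.9 RPKM in the day 7 libraries. Both genes had lower values in every day 14 library, as did 17.8% of all tested genes, and the log2 change of Nr4a3 was -0.48 (adjusted p 0.313 in limma). Nab2 (-0.73) and Nr4a2 (-0.95) also had negative changes, while Nr4a1 went the other way (0.89, adjusted p 0.240 in limma). Nr4a1 had 18.5, 18.8 and 15.0 RPKM in the day 14 libraries and 6.34, 8.03 and 10.9 RPKM in the day 7 libraries.

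Among other MAP kinase phosphatases, 0 of 4 tested genes passed in limma, 2 had an unadjusted p under 0.05, limma-voom called 1 and the median was 0.38. Dusp4, a nuclear MAP kinase phosphatase, had 34.9, 34.3 and 36.1 RPKM in the day 14 libraries and 17.2, 19.1 and 21.8 RPKM in the day 7 libraries (log2 change 0.79, adjusted p 0.151 in limma). Dusp6, which acts on ERK in the cytoplasm, had 16.1, 15.3 and 12.7 RPKM in the day 14 libraries and 2.51, 1.84 and 7.40 RPKM in the day 7 libraries (log2 change 1.60, adjusted p 0.0949 in limma). Like Dusp1, both were higher in every day 14 library, as were 31.6% of all tested genes. Dusp6 had 513, 538 and 472 reads in the day 14 libraries and 56, 48 and 135 in the day 7 libraries. It passed the minimum of 20 CPM only through day 14, so its values are no support for the list.

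Upstream, 0 of 7 tested SRF, TCF and CREB factors passed in limma, with 1 at an unadjusted p under 0.05, 0 by limma-voom and a median of 0.095. Srf, the partner of the TCF proteins, had 8.63, 9.73 and 9.05 RPKM in the day 14 libraries and 4.48, 5.25 and 3.67 RPKM in the day 7 libraries (log2 change 0.95, adjusted p 0.237 in limma). Atf1, a CREB family factor, had 9.67, 11.3 and 14.6 RPKM in the day 14 libraries and 19.3, 19.8 and 21.3 RPKM in the day 7 libraries (log2 change -0.75, adjusted p 0.361 in limma). Srf was thus higher and Atf1 lower in every day 14 library, neither past the test. Of all tested genes, 31.6% were higher and 17.8% lower in every day 14 library. Srf had 402, 500 and 493 reads in the day 14 libraries and 146, 200 and 98 in the day 7 libraries, so it passed the minimum of 20 CPM only through day 14. Of 13 tested MAP kinases and their activators, 0 passed in limma, 1 had an unadjusted p under 0.05 and limma-voom called 0, with a median of 0.14. Mapkapk2, a kinase downstream of p38, had a log2 change of 0.14 (adjusted p 0.830) and Map2k1, which activates ERK, one of 0.28 (adjusted p 0.665), both in limma.

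Among 20 tested further early response genes, 1 rose and 0 fell in limma, 5 had an unadjusted p under 0.05, limma-voom called 4 and the median was 0.031. Cyr61, a secreted matricellular protein induced by serum and by stretch, had 27.0, 21.6 and 23.2 RPKM in the day 14 libraries and 0.373, 0.106 and 0.911 RPKM in the day 7 libraries. The reads behind them were 620, 549 and 625 on day 14 and 6, 2 and 12 on day 7, so Cyr61 passed the minimum of 20 CPM only through day 14 and its call is no support for the list. Its log2 change was 4.01 (SE 0.43, adjusted p 0.0010001 in limma), and limma-voom did not call it although its log2 change was 5.68 there, without the pseudocount of 1 RPKM (adjusted p 0.126, the highest over 16 other settings, of which 15 called it).

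Among 4 tested AP-1 target genes, 1 rose and 0 fell in limma, 3 had an unadjusted p under 0.05, limma-voom called 1 and the median was 1.29. Plau had 16.6, 19.8 and 17.5 RPKM in the day 14 libraries and 1.29, 0.183 and 16.0 RPKM in the day 7 libraries. Plaur had 11.1, 12.7 and 17.0 RPKM in the day 14 libraries and 4.03, 2.87 and 5.04 RPKM in the day 7 libraries. Both passed the minimum of 20 CPM only through day 14, so this count and median are no support for the list. Cd44, a hyaluronan receptor, had 58.4, 62.7 and 59.1 RPKM in the day 14 libraries and 24.1, 22.7 and 32.3 RPKM in the day 7 libraries, far apart. Its log2 change was 1.10 (SE 0.24, adjusted p 0.0352 in limma), and 11 of 16 other settings called it (highest adjusted p 0.1998), the exceptions including the one without day 14 replicate 1 (0.0506). Of 4 tested transcripts bound by ZFP36, 1 rose and 0 fell in limma, 3 had an unadjusted p under 0.05, limma-voom called 2 and the median was 1.27. The log2 changes of Il1b (0.96), Ptgs2 (1.58) and Cxcl2 were positive, while that of Tnf was -0.96 (adjusted p 0.390 in limma). Tnf had 12.5, 8.74 and 7.10 RPKM in the day 14 libraries and 22.1, 24.6 and 15.3 RPKM in the day 7 libraries. With a mean of 22.0 CPM it passed the minimum of 20 CPM only through day 7. Its change is therefore no evidence on the direction of the list, and the median includes it. Cxcl2, a neutrophil chemokine, had 52.7, 57.5 and 55.3 RPKM in the day 14 libraries and 10.7, 7.89 and 25.1 RPKM in the day 7 libraries. Its log2 change was 1.78 (SE 0.33, adjusted p 0.0178 in limma), called in 14 of 16 other settings (highest adjusted p 0.180). The marker sums of macrophages, neutrophils and melanoma cells were also higher on day 14, and their part in these values was not tested.

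Heat-shock genes, which encode chaperones, had 10 tested members, of which 1 rose and 0 fell in limma, 5 had an unadjusted p under 0.05 and limma-voom called 6, with a median of 0.29. Hsp90aa1, the inducible cytosolic HSP90, had 1446, 1362 and 1362 RPKM in the day 14 libraries and 882, 871 and 929.6 RPKM in the day 7 libraries. Its log2 change was 0.62 (SE 0.11, adjusted p 0.0161 in limma), lost under median-of-ratios scaling (0.43, adjusted p 0.0774, the highest over 16 other settings, of which 15 called it).

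**Figure D4:**
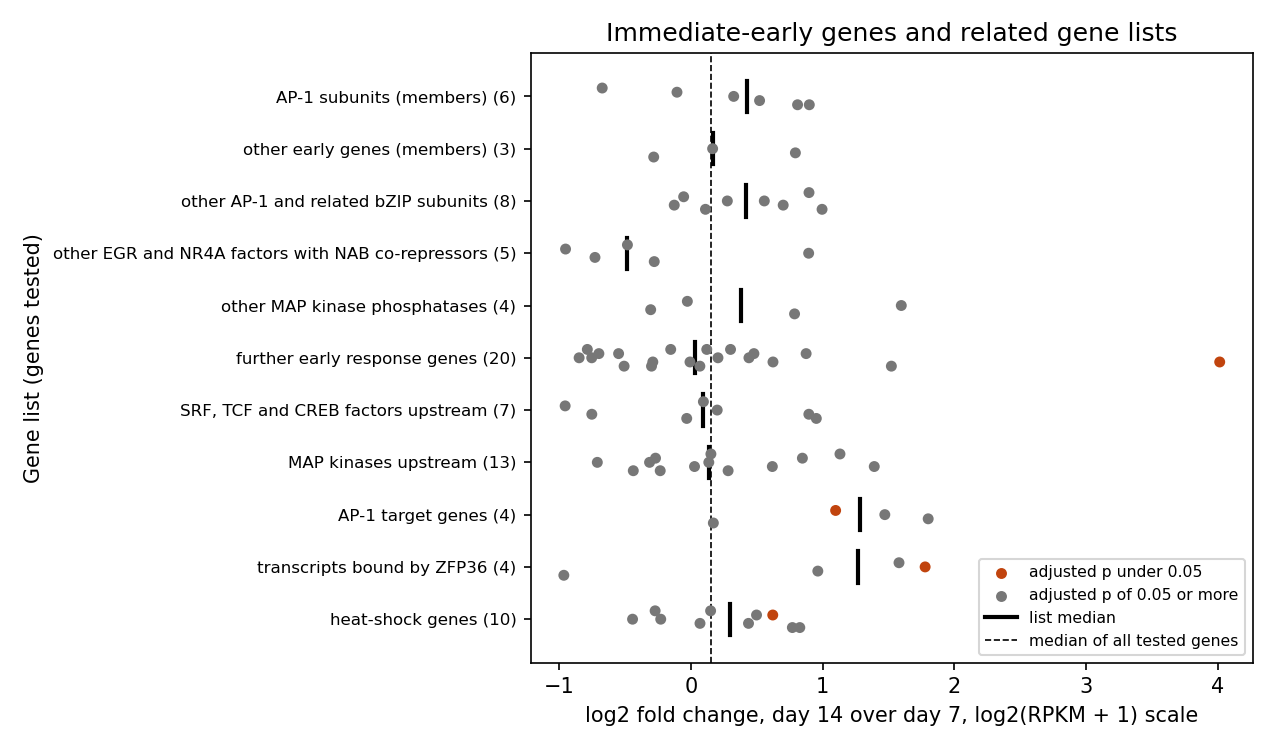
Log2 fold change, day 14 over day 7, of each tested gene in the lists, on the log2(RPKM + 1) scale, with called genes in orange, list medians as black bars and the median of all tested genes as a dashed line at 0.16. The orange points are Cyr61 (4.01), Cxcl2 (1.78), Cd44 (1.10) and Hsp90aa1 (0.62), and 0 members are orange.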

How the data were processed

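RPKM were deposited by the authors, 1 table per library. The unit was read from the values: RPKM times gene length and library size gave whole reads in every gene (tolerance 0.001). Per the submitters' processing notes, the tools included Trimmomatic 0.36, Subread 1.5.1 and featureCounts, and the build was GRCm38. No source used here gives the aligner, strand setting or use of molecular identifiers. Whether overlapping models on opposite strands share reads cannot be told without the strand setting.

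limma 3.58.1 in R 4.3.3 was fitted to log2(RPKM + 1) of genes whose CPM averaged 20 or higher in the 5 samples, with the day as term, precision weights per gene and day, a variance trend and Benjamini-Hochberg adjustment over all 6691 genes. An adjusted p under 0.05 was a call. The weights followed a loess trend (span 0.3, floor 0.005) of the variance within a day on the gene's mean over all samples. The design did not say which mean or measure of spread to use. This form was picked after the calls of 10 forms had been seen, after 2 of them (the variance on either mean) had been run on simulated reads, where it made fewer false calls than the other and recovered fewer changes. The other 8 were not run on simulated reads. It is the second strictest of the 10 by total calls, and Fos is called under 6 of them and Atf3 under 4.

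The genes and lists were chosen with earlier results of these data known. A number of calls reported earlier for weights described in the same words was given by 0 of the 10 forms. Named genes are all 10 members, up to 4 called genes per list by adjusted p or else the 2 with the highest mean RPKM, and the 3 genes nearest to Fos and to Jun. Alternatives were other filters, pseudocount, scaling, weights, limma-voom (reads taken as deposited, mostly counted in pairs), single libraries, a replicate block and leaving out each library. Deviations of libraries with the same replicate number were not correlated (-0.036 to -0.013). The day 7 deviations mostly set replicate 3 against the other day 7 libraries, so this check cannot tell whether the numbers pair libraries.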

Additional observations from a re-analysis of the deposited data

How the results depend on the processing

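The call of Fos, and of Atf3, turned on a choice made after the fits had been seen. The reported fit called 0 members and 227 genes. Of the 9 other forms of the precision weights, 3 also called 0 members (219 to 329 genes in all). The trends of the SD on the mean of each day called 1 member, Fos (422 and 437 genes, with 2.54% and 2.72% of all tested genes higher), and the trends of the log variance called 2, Fos and Atf3 (636, 653, 664 and 677 genes, with 4.50% to 6.04% of all tested genes higher). Without weights 3 members were called higher, beside 601 of all genes higher (8.98%) of 1011 called. With 6 libraries counted singly 4 were, beside 985 higher (14.7%) of 1564 called, and with limma-voom 2, beside 703 higher (10.5%) of 1257 called. Without a filter 0 members and 29 genes were called, and with a filter at RPKM of 1 in 2 samples 0 members and 62 genes. The replicate block with 6 libraries counted singly called 3 members higher, beside 653 genes (9.78%), and 1 lower, beside 500 (7.49%), of 1153 called. Whether the replicate numbers pair libraries is not known, so this fit is not read as a paired analysis. Per T cell transcript 9 members were called higher, beside 6271 genes higher (93.7%) of 6285 called, and the changes of Junb (1.68), Jund (1.11) and Egr1 (1.29) had the opposite sign. Leaving out each library in turn called 0 to 4 members higher, 0 to 1 lower and 195 to 3900 genes. The highest counts came without day 7 replicate 3, where day 7 is a single sample assumed to vary like day 14 and where Fos, Jun, Atf3 and Dusp1 were higher, beside 36.3% of all genes, and Egr1 lower, beside 21.7%. Without day 7 replicate 2, Fos alone was higher, beside 1.55% of all genes. With pseudocount 0.1, median-of-ratios scaling or the total without mitochondrial genes, 0 members were called. The cause of these differences was not tested. The weight forms and the total without mitochondrial genes were chosen after seeing the data. With n = 2, the spread on day 7 rests on replicate 3 against the mean of the other 2.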
